A study of Mus musculus with 24 samples.

Results

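The miR-15 family is a group of microRNAs (miRNAs) that share their seed, the stretch of bases that pairs with target messenger RNAs. Its 5 members with mouse assays were chosen by name out of 584 miRNA assays on the cards: mmu-miR-15a, mmu-miR-15b, mmu-miR-16, mmu-miR-195 and mmu-miR-497, written below without the species prefix. Levels were followed in muscle stem cells of 8-week-old male C57BL/6 mice, in quiescent cells (QSC) taken at 0 h and in activated cells (ASC) harvested 36, 60 and 72 h after muscle injury. All groups were unmodified cells of the same strain, sex and age, and the labels name neither a cell sort nor the agent of injury. Each of the 4 groups had 3 replicates on each of 2 TaqMan rodent miRNA cards, A and B. The design text calls these replicates technical, so no p-value below covers variation between mice. The limma p-values measure the spread between technical replicates. Those of the permutation tests, which pool the later times, also take in differences between these times.

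A miRNA represses messenger RNAs whose untranslated regions match its seed, so members with the same seed can act on overlapping targets. Targets reported for this family include the G1 cyclins D and E, the kinase Cdk6, the phosphatase Cdc25a and the survival factor Bcl2, and raised levels of its members arrest many cell types in G1. In muscle, miR-195 and miR-497 have been reported to hold juvenile and adult muscle stem cells in quiescence by acting on Cdc25 and cyclin D genes. Muscle stem cells lie quiescent beside the muscle fibre, enter the cell cycle after injury, and multiply as myoblasts before they differentiate.

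All 5 members matched a RefSeq mature sequence (GRCm38.p6). Their mature sequences are printed because they show how alike the measured RNAs are, and the capitals mark the seed, bases 2 to 8 from the 5′ end.
miR-15a: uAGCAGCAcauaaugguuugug
miR-15b: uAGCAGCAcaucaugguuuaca
miR-16: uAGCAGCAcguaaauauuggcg
miR-195: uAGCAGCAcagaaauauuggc
miR-497: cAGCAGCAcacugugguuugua
The seed was the same in all 5, and 10 of the 1679 mature miRNA names in the RefSeq table carried it. Beyond the seed the members differed. Read from the 5′ end without gaps, miR-16 and miR-195 shared 19 of 21 bases and miR-15a and miR-15b shared 18 of 22. Neighbours in the genome were less alike: miR-15b and miR-16 shared 14 of 22 bases, and miR-195 and miR-497 shared 12 of 21. How far each assay separates such close sequences was not tested.

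The members come from 3 loci. Mir15a (mature form at chr14:61632075-61632096, minus strand) and Mir16-1 (chr14:61631936-61631957, minus strand) lie within Dleu2, a long non-coding RNA gene. Mir15b (chr3:69009775-69009796, plus strand) and Mir16-2 (chr3:69009918-69009939, plus strand) lie within Smc4, which encodes a condensin subunit that compacts chromosomes at mitosis, and their hairpins are 66 bases apart. Mir497 (chr11:70234730-70234751, plus strand) and Mir195a (chr11:70235062-70235082, plus strand) have hairpins 241 bases apart, and the annotation overlaps Mir497 with Mir497b and Mir195a with no other gene. Mature miR-16 is identical from Mir16-1 and Mir16-2, so its level is the sum of both loci.

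Per array, the level of a member was the mean threshold cycle (Ct) of the 4 U6 small nuclear RNA spots minus the Ct of the member, so that 1 unit is a doubling of RNA and less negative values stand for more of it. Detection required a Ct below 35 in every spot of an assay. Differences were tested with limma over all assays of a card, with Benjamini-Hochberg adjustment over both cards, and called at an adjusted p under 0.05 and at least 2-fold. U6 itself was read at Ct 14.9 to 15.4 on card A, and 181 to 212 of its 375 assays were detected per array. In RNA from a bulk preparation, fewer cells of a type and less RNA per cell cannot be told apart.

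Relative to U6, miR-195 and miR-497 fell steeply between 36 and 72 h after injury, whereas miR-15b was higher at 36 and 60 h (at 36 h not with the mean of 152 assays as normalizer, -0.12) and miR-16 was higher at 36 h. miR-15a was detected on all arrays at 36 h alone. Against 0 h, 2 of the 4 testable members were higher and 0 lower at 36 h, where 44.1% of all tested assays were called higher and 12.1% lower. At 60 h 1 was higher and 2 lower, against 28% and 36.4% of all assays. At 72 h 0 were higher and 2 lower, against 20.9% and 45.9% of all assays. The members' median log2 changes were 0.99, -0.73 and -2.36 at 36, 60 and 72 h, beside 0.82, -0.37 and -0.77 over all tested assays. All members were read on card A, where the medians of the tested assays were 0.91, -0.49 and -1.37. These shares and medians rest on U6: with snoRNA202 in its place, the median change of all tested assays was 1.74, 2.08 and 2.04 at 36, 60 and 72 h, and 89.9% of the calls at 60 h were increases, against 43.5% with U6. Of the members, snoRNA202 gave 4 higher at 36 h and 2 higher and 1 lower at 72 h, and the mean of 152 assays gave 0 higher at 36 h.

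**Figure D1:**
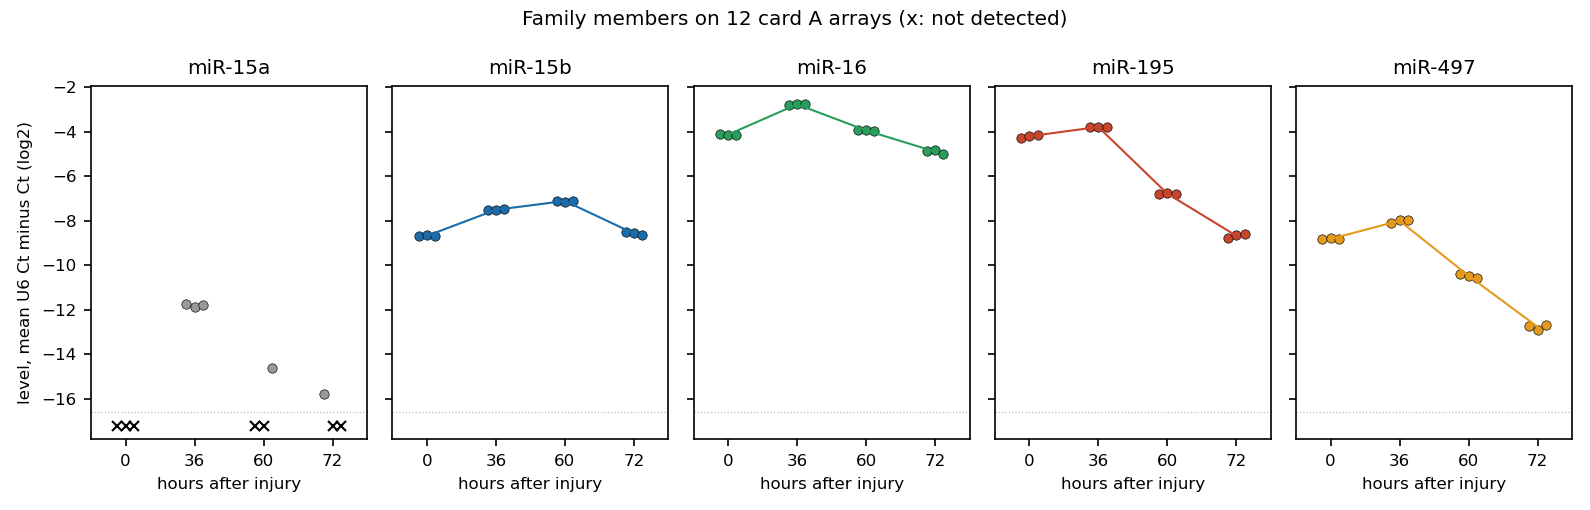
Level of each member (mean U6 Ct minus Ct, log2) on the 12 card A arrays by hours after injury, 3 arrays a time; points are arrays, lines join means of 3 detected arrays, and crosses below the dotted line are arrays where the member was not detected. miR-195 and miR-497 are lowest at 72 h, miR-15b is highest at 60 h, and miR-16 is highest at 36 h (with snoRNA202 as normalizer miR-16 was 0.36 higher at 60 h than at 36 h).

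miR-195, reported to keep muscle stem cells out of the cycle, was read in quiescent cells at a mean Ct of 19.6. Its level was -4.27, -4.16 and -4.15 on the 3 arrays at 0 h, -3.79, -3.77 and -3.78 at 36 h, -6.78, -6.74 and -6.79 at 60 h, and -8.78, -8.63 and -8.59 at 72 h. No time overlapped another, and the order was 36 h, 0 h, 60 h and 72 h from high to low. How many of all assays separate the times in this way was not counted. Lack of overlap between technical replicates, here and below, is therefore not read as particular to a miRNA. At 36 h the log2 change against 0 h was 0.42 ± 0.06 (standard error, n = 3 arrays per group; limma, adjusted p = 1.18e-04), which is under 2-fold and was not called, and the value was -0.87 with the mean of 152 assays as normalizer. At 60 h miR-195 was 5.96-fold lower than at 0 h (log2 -2.58 ± 0.06; limma, adjusted p = 5.43e-11). With snoRNA202 as the normalizer this change was -0.17 and was not called. At 72 h it was 22.2-fold lower (log2 -4.47 ± 0.06; limma, adjusted p = 1.05e-12), and with the 3 other normalizers the change at 72 h stayed between -3.60 and -1.42 and was called each time.

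miR-497, the hairpin neighbour of miR-195, followed a like course. Its level was -8.82, -8.78 and -8.82 on the arrays at 0 h, -8.08, -7.95 and -7.94 at 36 h, -10.37, -10.47 and -10.54 at 60 h, and -12.72, -12.88 and -12.67 at 72 h. Again no time overlapped another, and the 36 h arrays were the highest. The change at 36 h was 0.82 ± 0.07 (limma, adjusted p = 3.54e-06), under 2-fold with U6, 1.03 and called with snoRNA135, and -0.47 with the mean of 152 assays. At 60 h miR-497 was 3.14-fold lower than at 0 h (log2 -1.65 ± 0.07; limma, adjusted p = 8.52e-09), although with snoRNA202 as the normalizer it was higher, at 0.75. At 72 h it was 15.4-fold lower (log2 -3.95 ± 0.07; limma, adjusted p = 8.40e-12). With snoRNA202 the change at 72 h was -0.90, which is under 2-fold.

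The drop in both continued through the later times. At 60 h against 36 h the log2 change was -2.99 for miR-195 and -2.47 for miR-497, and at 72 h against 60 h it was -1.89 and -2.29, all called. With snoRNA202 the change of miR-497 at 60 h against 36 h was -0.94, under 2-fold and not called, and the other 3 changes were called with each normalizer. At 72 h against 36 h, miR-195 was 29.6-fold lower and miR-497 27.2-fold lower. Of the 4 testable members, 3 were called lower at 60 h against 36 h, where 49.5% of all tested assays were, and 3 at 72 h against 60 h, where 35.8% were. The third member at 60 h against 36 h was miR-16 (-1.17), which was 0.36 with snoRNA202 and 0.28 with the mean of 152 assays. The third at 72 h against 60 h was miR-15b (-1.46), which was under 2-fold and not called with snoRNA202 (-0.82), snoRNA135 (-0.93) and the mean of 152 assays (-0.58). All 4 were called lower at 72 h against 36 h, where 69.3% of all tested assays were, although miR-15b and miR-16 were above 0 in this comparison with snoRNA202 (1.11 and 0.05) and with the mean of 152 assays (1.26 and 0.20), and miR-15b was not called with snoRNA135 (-0.41). In the comparison of 72 with 60 h, 3 of the 178 tested card A assays fell further than miR-497 and 6 further than miR-195. At 72 h against 0 h, 14 of 166 card A assays were further down than miR-195 and 21 further down than miR-497.

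**Figure D2:**
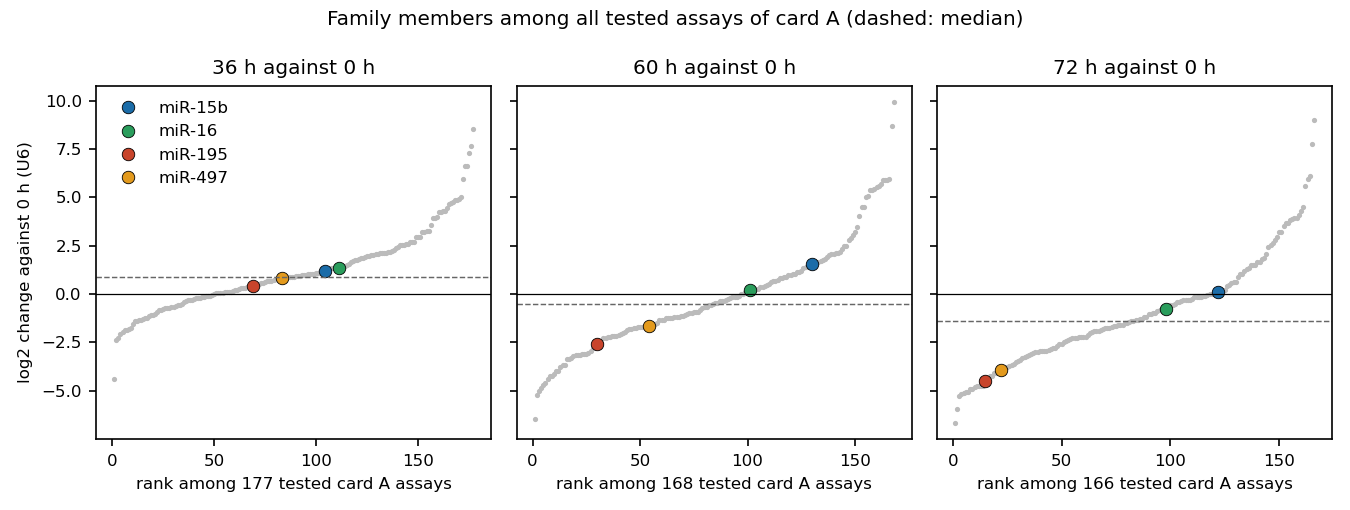
Log2 change against 0 h (U6 as the normalizer) of every tested card A assay, in rank order, at 36, 60 and 72 h; grey points are assays, the dashed line is their median and coloured points are the members. miR-195 and miR-497 lie near the low end at 72 h (-4.47 and -3.95), while miR-15b and miR-16 lie above the median at all 3 times.

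miR-15b is encoded within Smc4 next to miR-16. Its level was -8.69, -8.64 and -8.69 on the arrays at 0 h, -7.51, -7.51 and -7.48 at 36 h, -7.09, -7.13 and -7.09 at 60 h, and -8.50, -8.55 and -8.64 at 72 h. The 36 and 60 h arrays lay above all others without overlap, and the ranges at 72 and 0 h overlapped. At 36 h miR-15b was 2.25-fold higher than at 0 h (log2 1.17 ± 0.05; limma, adjusted p = 8.18e-09), but with the mean of 152 assays as normalizer the change was -0.12. At 60 h it was 2.97-fold higher (log2 1.57 ± 0.05; limma, adjusted p = 6.59e-10), and this was called with all 4 normalizers, at 1.57 to 3.97. At 72 h it did not pass the test (log2 0.11 ± 0.05; limma, adjusted p = 0.0662). With snoRNA202 and with the mean of 152 assays it was called higher at 72 h, at 3.16 and 1.14.

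miR-16, reported to arrest cells in G1, was read at a mean Ct of 17.6 at 36 h. Its level was -4.08, -4.15 and -4.15 on the arrays at 0 h, -2.80, -2.75 and -2.74 at 36 h, -3.93, -3.93 and -3.94 at 60 h, and -4.85, -4.82 and -4.99 at 72 h. The times did not overlap, with 36 h the highest, then 60 h, 0 h and 72 h. At 36 h miR-16 was 2.57-fold higher than at 0 h (log2 1.36 ± 0.06; limma, adjusted p = 5.67e-09), and with the mean of 152 assays the change was 0.07 and was not called. The change at 60 h was 0.19 ± 0.06 (limma, adjusted p = 0.00924), under 2-fold. At 72 h it was -0.76 ± 0.06 (limma, adjusted p = 3.99e-07), also under 2-fold, and it was above 0 with each other normalizer, at 2.28 with snoRNA202, 0.10 with snoRNA135 and 0.27 with the mean of 152 assays. No direction for miR-16 at 72 h therefore holds over the normalizers.

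miR-15a, from the Dleu2 locus, was not detected on any of the 3 arrays at 0 h, where no Ct was recorded. At 36 h its level was -11.73, -11.89 and -11.77, at Ct 26.6 to 26.8. With the 0 h arrays set to Ct 35, miR-15a at 36 h was 228-fold higher than at 0 h. Set to Ct 40 they gave 7289-fold, so the value filled in sets the size of this fold. The authors' deposited table gives 7294, 341 and 156 for miR-15a at days 1.5, 2.5 and 3.5. At 60 h it was read on 1 of 3 arrays, at -14.62 (Ct 30.0), and at 72 h on 1 of 3, at -15.75 (Ct 30.9). Against the mean at 36 h, these single arrays were 7.11-fold and 15.6-fold lower. The remaining 2 arrays at each of these times gave no Ct, so no test was made for miR-15a. Replicates of the same time thus gave either no Ct or a Ct of 30.0 or 30.9, so an empty cell need not lie beyond Ct 35. The 228-fold is therefore not a lower bound.

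The choice of normalizer set the size of the changes and some of their directions. Relative to U6 on card A, snoRNA202 changed by -0.88 at 36 h, -2.40 at 60 h and -3.05 at 72 h. snoRNA135 changed by -0.22, -0.34 and -0.87 at these times, and the mean of the 152 assays detected on every card A array by 1.29, -0.16 and -1.03. Which control RNA stayed level per cell was not tested. The deposited fold changes, in the authors' deposited table, were 2.25, 2.97 and 1.08 for miR-15b, 2.57, 1.14 and 0.589 for miR-16, 1.34, 0.168 and 0.0452 for miR-195, and 1.76, 0.318 and 0.0652 for miR-497 at days 1.5, 2.5 and 3.5. For the passenger strands on card B the table's values at day 1.5 lay further from those given below, and for miR-16* those at days 2.5 and 3.5 did so too.

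**Figure D3:**
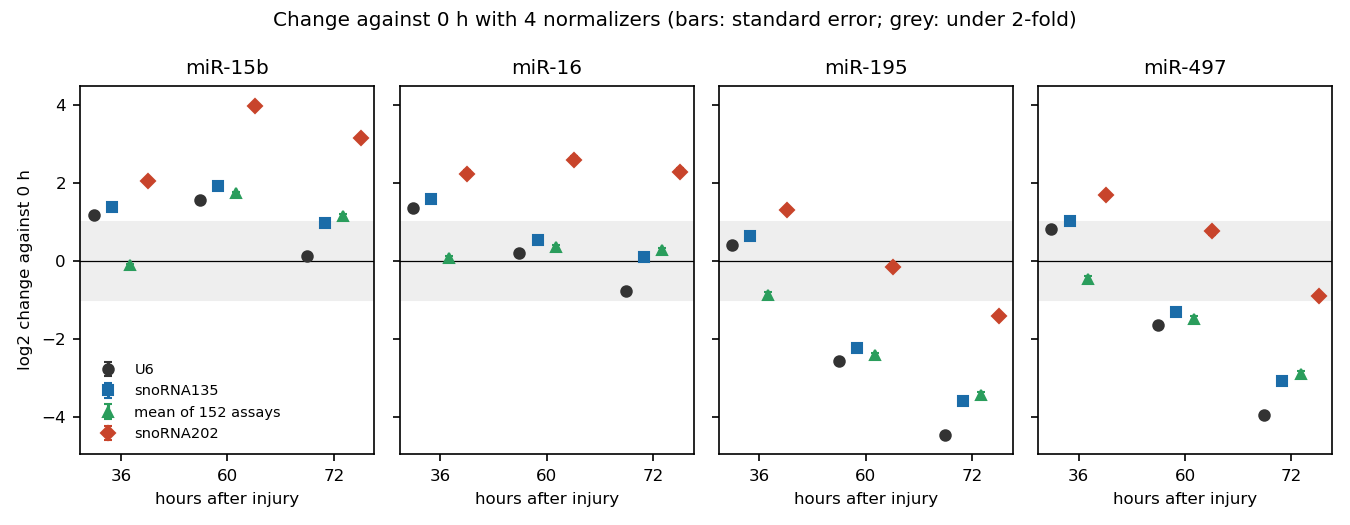
Log2 change against 0 h of the 4 testable members at 36, 60 and 72 h with U6, snoRNA135, the mean of 152 assays or snoRNA202 as normalizer; bars are standard errors from limma, mostly smaller than the symbols, and grey marks changes under 2-fold. miR-195 at 72 h is below -1 with all 4 normalizers (-4.47 to -1.42), whereas miR-16 at 72 h lies on both sides of 0 and miR-497 at 60 h is above 0 with snoRNA202 alone (0.75).

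To compare members without any normalizer, the difference in Ct between 2 members was taken within each array. miR-16 over miR-195 had log2 ratios of 0.07 ± 0.11, 1.02 ± 0.03, 2.84 ± 0.03 and 3.78 ± 0.16 at 0, 36, 60 and 72 h (SD, n = 3 arrays each). The ratio was thus 13.1-fold higher at 72 h than at 0 h, and the 9 later arrays all lay above the 3 arrays at 0 h. The mean later change was 2.47 (exact permutation test, two-sided, p = 0.00909, the smallest p that 9 against 3 arrays allow; adjusted p = 0.0114 over 5 ratios). These 2 miRNAs, identical at 19 of 21 bases, were therefore read as changing by different amounts in the same RNA.

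The other ratios between the clusters moved the same way. miR-15b over miR-195 was 23.9-fold higher at 72 h than at 0 h, with a log2 change of 0.76 at 36 h, 4.15 at 60 h and 4.58 at 72 h. miR-16 over miR-497 was 9.09-fold higher at 72 h, with changes of 0.55, 1.84 and 3.18. Both had all 9 later arrays above all 3 arrays at 0 h, and both gave p = 0.00909 in the exact permutation test (adjusted p = 0.0114).

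Against 0 h, miR-195 over miR-497 and miR-15b over miR-16, ratios between hairpin neighbours, moved less at each time than the ratios between clusters. Mature miR-16 also comes from Mir16-1, so its ratio to miR-15b or miR-15a does not read 1 locus alone. miR-195 over miR-497 had log2 ratios of 4.61 ± 0.06, 4.21 ± 0.07, 3.69 ± 0.09 and 4.09 ± 0.16 at 0, 36, 60 and 72 h (SD, n = 3). All 9 later arrays lay below the 0 h arrays, by 0.62 on average (exact permutation test, p = 0.00909, adjusted p = 0.0114). miR-15b over miR-16 changed by -0.19 at 36 h, 1.38 at 60 h and 0.87 at 72 h. Of its 9 later arrays 6 lay above the 0 h arrays and 3 below, and the mean change of 0.69 did not pass the exact permutation test (p = 0.182). These arrays pool 36, 60 and 72 h, so differences between the times enter this test. miR-15a over miR-16 could be taken at 36 h on 3 arrays, with a mean of -9.03, and on 1 array each at 60 h (-10.68) and 72 h (-10.91). Each later time against 0 h is 3 against 3 arrays, for which the smallest exact p is 0.1.

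**Figure D4:**
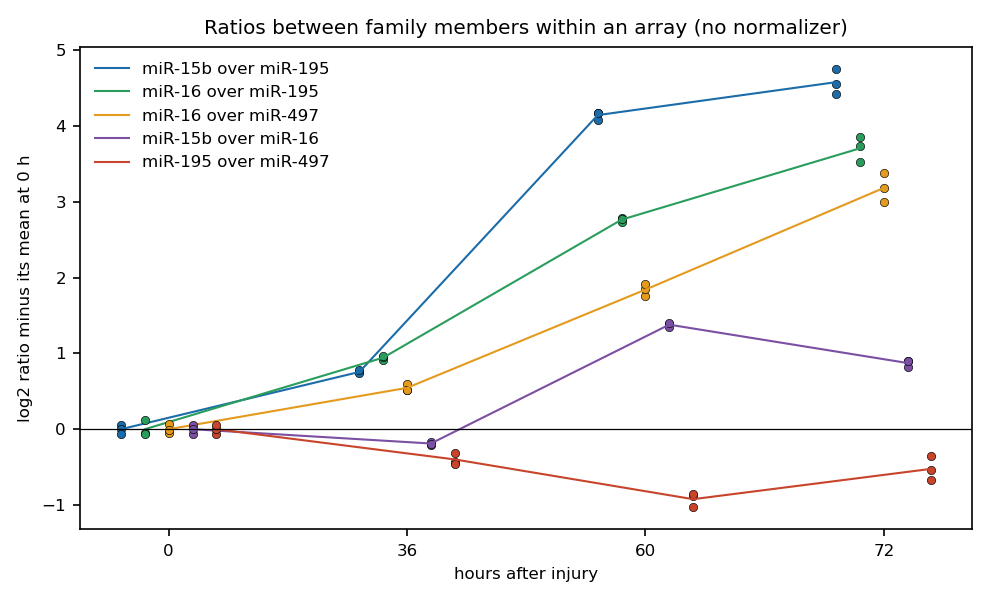
Log2 ratio between 2 members on the same card A array, less its mean at 0 h, by hours after injury; points are arrays, 3 a time, and lines join means. The means of the 3 ratios of miR-15b or miR-16 over miR-195 or miR-497 rise to 3.18 to 4.58 at 72 h. Those of miR-195 over miR-497 stay between -0.92 and 0, with single arrays outside this range.

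The other strand of a hairpin, the passenger strand marked with an asterisk, was measured for 3 members, each in 2 spots on card B. The first 2 are shown with bases 2 to 8 in capitals to mark that their seeds differ from the family seed and from each other.
miR-15a*: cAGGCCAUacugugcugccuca
miR-15b*: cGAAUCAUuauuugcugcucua
The miR-15a* strand had levels of -15.14, -16.45 and -15.72 at 0 h, -12.62, -12.39 and -12.57 at 36 h, -13.11, -13.23 and -13.40 at 60 h, and -14.23, -14.23 and -14.20 at 72 h. All arrays after injury lay above those at 0 h. It was 9.50-fold higher at 36 h (log2 3.25 ± 0.26; limma, adjusted p = 7.77e-07), 5.77-fold at 60 h and 2.93-fold at 72 h, called at each time. For day 1.5 the authors' deposited table gives 49.8 and 57.5 for its 2 spots, and the source of this gap was not tested. The guide strand miR-15a was without a Ct on 2 of 3 arrays at 60 h and at 72 h, where miR-15a* was detected on 3 of 3 arrays, but the strands were read on different cards.

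miR-15b* had no Ct below 35 at 0 h. Its level was -12.09, -11.82 and -12.04 at 36 h and -11.23, -11.41 and -11.35 at 60 h, without overlap. With 0 h set to Ct 35 it was 176-fold higher at 36 h and 277-fold higher at 60 h. At 72 h both spots were read on 1 of 3 arrays, at -14.14. On each other array 1 spot gave no Ct beside a spot at 29.7 or 29.3, so these folds are not lower bounds. The highest single spot at 72 h was 5.29-fold below the mean at 60 h. Like its guide strand, miR-15b* was highest at 60 h of the 4 times.

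miR-16* was detected on 2 of 3 arrays at 0 h, at -18.26 and -17.19, and the limma fit left out the third. It was read at -14.59, -14.88 and -14.59 at 36 h, -14.43, -14.50 and -14.93 at 60 h, and -15.49, -15.75 and -15.70 at 72 h. The changes against 0 h were 3.04, 3.10 and 2.08 (limma, adjusted p = 6.28e-06, 4.06e-06 and 8.68e-05), called at each time and with all 4 normalizers. The authors' deposited table gives folds of 234 and 1373 for the 2 spots at day 1.5, against 8.20-fold here at 36 h. For day 2.5 it gives 70.2 and 307, against 8.60-fold at 60 h, and for day 3.5 34.8 and 113, against 4.21-fold at 72 h. Which of the 2 hairpins the miR-16* assay reads is not stated in the files.

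A pair of relatives from the X chromosome were measured on card A. miR-322 (chrX:53054306-53054327, minus strand) carries the family seed, and miR-503 (chrX:53054027-53054049, minus strand) differs from it in the last seed base. Both are shown with the seed in capitals.
miR-322: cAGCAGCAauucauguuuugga
miR-503: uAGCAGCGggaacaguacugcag
Both have been reported to act on Cdc25a and to rise as myoblasts leave the cell cycle. miR-322 had levels of -16.40, -17.75 and -16.86 at 0 h, -10.43, -10.26 and -10.41 at 36 h, -10.78, -11.25 and -11.09 at 60 h, and -10.95, -11.03 and -11.15 at 72 h. It was 99.5-fold higher at 36 h (log2 6.64 ± 0.28; limma, adjusted p = 7.32e-09), 62.4-fold at 60 h and 62.1-fold at 72 h, and called with all 4 normalizers. miR-322 thus moved opposite to miR-195 and miR-497 at 72 h while sharing their seed. miR-503 had no Ct below 35 at 0 h and levels of -16.88, -17.50 and -17.23 at 36 h, -16.76, -17.32 and -16.61 at 60 h, and -15.65, -15.72 and -15.76 at 72 h. With 0 h set to Ct 35 it was 5.35-fold higher at 36 h, 6.65-fold at 60 h and 15.1-fold at 72 h, which are not firm lower bounds.

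**Figure D5:**
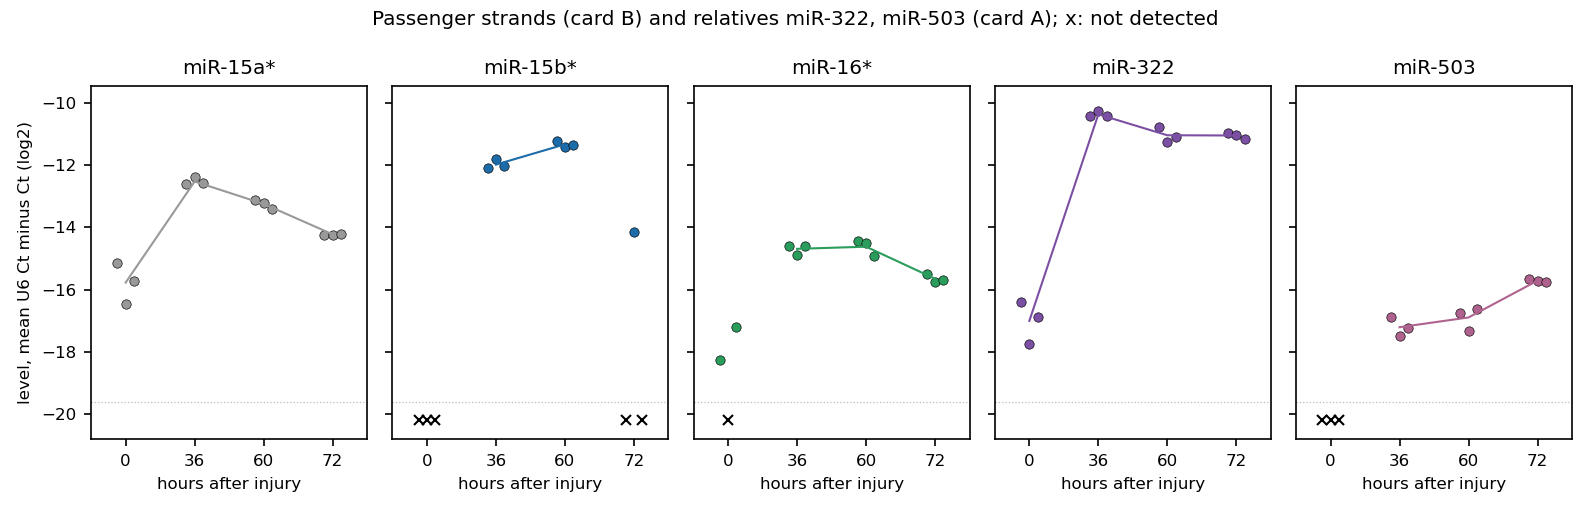
Level (mean U6 Ct minus Ct, log2) of the passenger strands miR-15a*, miR-15b* and miR-16* on the 12 card B arrays and of miR-322 and miR-503 on the 12 card A arrays by hours after injury; points are arrays, lines join means of 3 detected arrays, and crosses mark arrays without detection. Every detected array after injury lies above the detected 0 h arrays of the same RNA, and miR-503 is highest at 72 h.

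Likeness of pattern was measured as the root mean square difference between mean-centred levels over the 12 card A arrays, among 151 other assays detected on all of them. It is a description of arrays that share RNA, card and time. Nearest to miR-195 were miR-204 (0.26 log2 units), miR-411 (0.33) and miR-26a (0.34), and miR-497 came next at 0.34. Nearest to miR-497 were miR-195 (0.34), miR-99a (0.35) and miR-125b-5p (0.39). Nearest to miR-15b were miR-92a (0.18), miR-25 (0.20) and miR-99b (0.22), and nearest to miR-16 were miR-484 (0.16), miR-455 (0.20) and miR-196b (0.20). miR-15b and miR-16 lay 0.64 apart, and miR-15b and miR-195 lay 2.02 apart. By this measure miR-195 and miR-497 were nearer to each other than any other pair of the 4 members, and miR-15a, detected on 5 arrays, was not compared. The order depends on the measure: ranked by Pearson correlation instead, 0 of the 3 assays nearest to miR-195 and 1 of the 3 nearest to miR-16 were the same, and miR-125b-5p and miR-99a (both r = 0.99) correlated with miR-497 more closely than miR-195 did.

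Other miRNAs reported to act on the cell cycle were read beside the family. Of 22 listed as reported to restrain division, 14 could be tested, and at 36 h 8 were higher and 0 lower, at 60 h 6 higher and 4 lower, and at 72 h 4 higher and 8 lower. Over all tested assays the shares called higher and lower were 44.1% and 12.1% at 36 h, 28% and 36.4% at 60 h, and 20.9% and 45.9% at 72 h. The list's median log2 change was 1.76, 0.27 and -1.25 at these times with U6, and snoRNA202 gave 11 higher and 0 lower at 60 h and 10 higher and 0 lower at 72 h, with a median of 1.80 at 72 h. Besides miR-322, the largest called change was that of miR-449a, of the miR-34 and miR-449 group that acts on cyclin D1 and Cdk6. It was higher by 4.72, 5.71 and 4.30 at 36, 60 and 72 h, with a standard error of 0.55, the largest among the tested assays of the list. The let-7 member let-7i was higher by 4.25, 3.22 and 1.88. In the other direction, miR-26a, which is reported to repress cyclins and Cdk6, changed by -2.76 at 60 h and -3.90 at 72 h, and let-7c, of the let-7 family that restrains growth, by -2.28 and -3.26, both called with U6 and neither with snoRNA202. Of 16 listed as reported to promote division, 14 could be tested, and 12, 14 and 10 were higher at 36, 60 and 72 h with 0 lower at any of these times and with any of the 4 normalizers. miR-21 was 98.2-fold higher at 36 h and miR-221, which represses the inhibitor p27, was 30.4-fold higher. The median of this list was 4.13, 4.77 and 3.39, beside 0.82, -0.37 and -0.77 for all tested assays. On card A, where the tested assays of this list were read, the medians of all tested assays were 0.91, -0.49 and -1.37.

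Relative to U6, the summed endothelial and mesenchymal markers had the order of miR-195 and miR-497 over the 4 times, whereas miR-15b was highest at 60 h. The leukocyte and epithelial sums had this order too. So did the mean of 152 card A assays, which changed by 1.29, -0.16 and -1.03 at 36, 60 and 72 h against 0 h. The order is therefore not particular to these markers. The summed linear level (2 to the power of the log2 level, U6 as 1) of the 2 endothelial assays ranged from 0.0437 to 0.0462 at 0 h and 0.204 to 0.206 at 36 h. It was 0.0129 to 0.0137 at 60 h and 0.0117 to 0.0119 at 72 h. That of the 5 mesenchymal and smooth muscle assays, of which 4 were detected on all arrays, was 0.107 to 0.116, 0.148 to 0.154, 0.0139 to 0.0143 and 0.00883 to 0.00930. Both sums, like miR-195 and miR-497, were highest at 36 h and lowest at 72 h relative to U6. With snoRNA202, however, the endothelial median at 72 h was 0.98 above 0 h and the mesenchymal median 1.06 above it. Of the 4 mesenchymal assays tested, 2 were then called higher and 1 lower. The mesenchymal miR-199a-5p was not detected at 0, 36 or 60 h. The 6 leukocyte assays summed to 0.0240 to 0.0247, 0.0761 to 0.0794, 0.0105 to 0.0115 and 0.00586 to 0.00641, with miR-142-5p undetected at 0 h. Its members did not move as the sum did: of 5 tested, 4, 3 and 2 were called higher and 0, 1 and 1 lower than 0 h at 36, 60 and 72 h, and at 72 h miR-223 was at 3.81 and miR-150 at -4.21. The part of these cells in the members' changes was not tested. The 5 muscle lineage assays were detected on every array and summed to 0.0626 to 0.0792 at 0 h and 0.492 to 0.523 at 72 h. Of these, 4 were called higher and 1 lower at 72 h, the lower one being miR-489, which is enriched in quiescent muscle stem cells and changed by -1.40, -4.85 and -6.66 at 36, 60 and 72 h. Of the 7 epithelial assays, 3 were detected on all 3 arrays at 36 h and 1 at each other time, and miR-141, miR-200a, miR-200b and miR-429 were undetected throughout. The 1 that could be tested changed by 0.44, -1.68 and -2.97 at 36, 60 and 72 h with U6. With snoRNA202 it changed by 1.32, 0.72 and 0.08. Erythroid miR-451 was undetected at 0 h, but was read on 3 of 3 arrays at 36 h, at 5.82e-05 to 1.23e-04, and at 60 h.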

How the data were processed

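Per the labels' protocols, Trizol RNA was reverse transcribed and read on TaqMan rodent miRNA cards A and B for 40 cycles. Per the file headers, the deposited values are threshold cycles (Ct), an inverse log2 scale with empty cells where none was determined. Which software and threshold produced them is not given in the sources used here. A linear fold ratio is quoted from the authors' deposited table, whose last time is day 3.5 per the file headers, whereas the labels give 72 h. A further 84 per-sample columns were not used.

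Levels were the mean U6 Ct minus Ct (log2), with spots of an assay averaged. Testing an assay required 2 or more detected replicates per group compared. One limma (3.58.1, R 4.3.3) fit per card held its 12 arrays, and the method was tested on simulated data first. Exact permutation tests used scipy 1.17.1. Folds against undetected groups set these to Ct 35 and are not firm lower bounds. With Ct 40 in its place each of these folds was larger. The precision is limited by 3 technical replicates a group. The members and lists were chosen with earlier results of these data known. Named are all members, their passenger strands, miR-322 and miR-503, the 3 assays most alike each member, and the largest called changes of the cell cycle lists.

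Same-numbered arrays did not deviate together at all times. Of their correlations, 5 of 18 on card A and 4 of 18 on card B were over 0.1, beside 7 and 13 of 36 between different numbers. On card B the same-numbered pairs of 60 and 0 h were at 0.49, 0.49 and 0.34, and those of 60 and 36 h at -0.43, -0.33 and -0.38. The replicate numbers were therefore not taken as pairs. Alternatives were other normalizers, detection limits of Ct 40 and 32, undetected values at Ct 35, assays detected on 12 of 12 arrays, U6 averaged over the group, fits on the compared arrays alone, a replicate block, no minimum fold and leaving out each replicate.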

Additional observations from a re-analysis of the deposited data

Results flagged for a closer look

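The change of miR-16 against 0 h differed between 72 and 36 h. It was -0.76 at 72 h and 1.36 at 36 h, and the difference of -2.12 was tested directly in limma (adjusted p = 9.90e-11). With snoRNA202 and with the mean of 152 assays as normalizer this difference was 0.05 and 0.20.

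The change of miR-195 against 0 h also differed between the later times and 36 h. With U6, at 60 h the change was -2.58 and at 36 h 0.42, a difference of -2.99 (limma, adjusted p = 2.68e-11). At 72 h the change was -4.47, which differs from that at 36 h by -4.89 (limma, adjusted p = 6.28e-13). For miR-497 the change was -1.65 at 60 h and 0.82 at 36 h, a difference of -2.47 (limma, adjusted p = 5.51e-10). At 72 h the change was -3.95, and the difference from 36 h was -4.76 (limma, adjusted p = 2.56e-12). With the mean of 152 assays the changes at 36 h were also below 0, at -0.87 for miR-195 and -0.47 for miR-497, and the differences between 60 and 36 h were -1.55 and -1.02. With snoRNA202 the changes of miR-497 at 60 and 36 h were both above 0, at 0.75 and 1.69, and their difference of -0.94 was not called. The differences between 72 and 36 h were called with all 4 normalizers for both miRNAs. The differences in this section are the direct comparisons of 60 or 72 h with 36 h, in which the 0 h arrays cancel, and not further tests. The summed endothelial and mesenchymal marker levels described above moved in the same order relative to U6. So did the leukocyte and epithelial sums and the mean of 152 assays.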

How the results depend on the processing

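The normalizer was the choice that moved the members most. At 36 h against 0 h, snoRNA202 gave 4 members higher, with miR-195 at 1.29 and miR-497 at 1.69, and snoRNA135 put miR-497 at 1.03. The mean of 152 assays gave 0 higher, with miR-15b at -0.12, miR-16 at 0.071, miR-195 at -0.87 and miR-497 at -0.47. At 60 h, snoRNA202 gave 2 higher and 0 lower, with miR-16 at 2.59, miR-195 at -0.17 and miR-497 at 0.75. At 72 h, snoRNA202 gave 2 higher and 1 lower, with miR-15b at 3.16, miR-16 at 2.28 and miR-497 at -0.90, and over the mean of the later times miR-497 was at 0.52. For 72 h, snoRNA135 put miR-16 at 0.10, and the mean of 152 assays gave 1 higher, with miR-15b at 1.14 and miR-16 at 0.27. At 60 against 36 h, snoRNA202 gave 0.36 for miR-16, 0.72 for miR-15a* and 0.86 for miR-322, and the mean of 152 assays gave 0.28 for miR-16 and 0.78 for miR-322. At 72 against 36 h, snoRNA202 gave 1.11 for miR-15b, 0.046 for miR-16, 0.54 for miR-16* and 1.49 for miR-322, and the mean of all assays detected on every array of the card (152 on card A, 70 on card B) gave 1.26, 0.20, 0.18 and 1.64 for these miRNAs. At 72 against 60 h, miR-322 was at 0.64, 0.52 and 0.87 with snoRNA202, snoRNA135 and the mean of 152 assays, and the count of called assays was 46, 59 and 42, against 97 with U6. The cause was not tested. The ratios within an array do not depend on this choice.

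Without the minimum fold, 4 members were called higher at 36 h (miR-195 at 0.42 and miR-497 at 0.82) and 2 at 60 h (miR-16 at 0.19), miR-16 was called at -0.76 at 72 h, and 200 and 206 assays were called at 72 against 60 h and over the mean of the later times. With a replicate block, miR-195 at 72 h gave -4.47, and none of the 28 member results changed its call or direction. The same held for the detection limits, the imputed values, the assays on all arrays, U6 per group and the fits on the compared arrays alone. The testable members were read at Ct 28.1 or lower on every array. The limits, the imputed values and the all-array filter therefore could not alter their levels. The block, U6 per group and the separate fits leave differences between group means unchanged. All these settings could move the members' p-values alone, so they do not check the size or direction of a change. Leaving out a replicate changed the call or direction in none of the 192 refits of member results: miR-195 at 72 h was between -4.51 and -4.42 and miR-15b at 72 h between 0.08 and 0.15. It turned the direction, in some refits, of miR-16* at 60 against 36 h (-0.027 to 0.22) and miR-322 at 72 against 60 h (-0.11 to 0.12). The 5 tested ratios kept their side of the threshold under their alternatives. The single spot per array of a member on card A, and the late Ct of miR-15a at 60 and 72 h (30.0 and 30.9), limit what can be resolved.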

Other observations

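Changes between the later times differed among the passenger strands and relatives. miR-15a* was 3.24-fold lower at 72 h than at 36 h (log2 -1.70; limma, adjusted p = 1.06e-04), but with snoRNA202 and with the mean of 70 card B assays the change was -0.19 and -0.56 and was not called. miR-503 was higher at 72 h than at 36 h (2.82-fold; limma, adjusted p = 2.41e-04) and than at 60 h (2.27-fold; limma, adjusted p = 0.00140). Without replicate 2 of 60 h its difference between 72 and 60 h was 0.97, under 2-fold. For miR-322 the difference between 72 and 60 h was -0.01 (limma, adjusted p = 0.986).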
